A study of Homo sapiens with 4 samples.

Results

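The protocadherin genes are the largest group of the cadherin superfamily, and every protein-coding gene whose symbol begins with PCDH was taken as a member. GENCODE 29 lists 66 such genes, of which 29 were analysed among 40188 genes with values: the 16 genes of the PCDHB cluster and 13 non-clustered genes. The 15 PCDHA genes and the 22 PCDHG genes were not analysed here. The study made stable lines of HEK293, a human embryonic kidney line in wide laboratory use, that carry either an empty vector or a vector for MSI1, SRRM3 or SRRM4 under doxycycline control. All 4 lines, the empty-vector line included, received 1 µg/mL doxycycline for 24 h, and polyA RNA from each was sequenced once. Musashi-1 (MSI1) is an RNA-binding protein, and SRRM3 and SRRM4 are splicing regulators that promote the inclusion of very short exons in neurons. With 1 library per group there is no replicate check, so the library, the stable line and the induced gene cannot be told apart, and no p-value was computed.

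Protocadherins are single-pass membrane proteins with extracellular cadherin repeats that bind like molecules on neighbouring cells. In the PCDHA and PCDHG clusters on chromosome 5, each gene contributes a large variable exon with its own promoter, which is spliced to constant exons shared by the cluster. PCDHB genes are encoded by a large exon with its own promoter and lack such constant exons. Neurons switch on a small, variable set of these promoters, through CTCF and cohesin, and the resulting mixture of surface proteins lets a neuron tell its own branches from those of others. The non-clustered genes lie apart from the clusters and are divided into delta1 (PCDH1, PCDH7, PCDH9, PCDH11X, PCDH11Y), delta2 (PCDH8, PCDH10, PCDH17, PCDH18, PCDH19) and others.

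The PCDHB promoters carry a shared sequence, shown here because it is a feature of the cluster that the choice of members did not use. The most frequent run of 10 bases in the 250 bases before to 50 bases after the PCDHB gene starts was GGTGGCGCTG, in capitals below, searched on both strands. It was picked from these promoters, so its frequency among them is a description. The sequences are from RefSeq on GRCh38.p14 (chromosome 5, plus strand), and 25 of the 29 members had an entry.
PCDHB2, chr5:141094540-141094579: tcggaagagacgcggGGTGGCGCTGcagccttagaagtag
PCDHB13, chr5:141213861-141213900: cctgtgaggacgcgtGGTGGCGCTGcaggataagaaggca
PCDHB15, chr5:141245310-141245349: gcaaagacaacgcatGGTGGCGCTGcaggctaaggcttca
PCDHB16, chr5:141182306-141182345: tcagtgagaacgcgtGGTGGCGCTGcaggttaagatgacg
PCDHB12, chr5:141208639-141208678: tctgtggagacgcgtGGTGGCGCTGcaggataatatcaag
The run was present in 12 of the 14 PCDHB promoters with an entry and absent from those of PCDHB1 and PCDHB14. As an exact match, it was found in 0 of 13 PCDHA, 0 of 20 PCDHG and 0 of 11 non-clustered promoters. It was found in 97 of all 35116 promoters of that length, or 0.276%. Related runs that differ in some bases were not searched for, so the counts of 0 do not show that such a sequence is limited to PCDHB. Reads were not divided along the presence of the run. PCDHB2 holds it and had 100 to 126 reads per library, PCDHB12 holds it and had 0 reads in each, and PCDHB1 lacks it and had 14 to 32.

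The similarity of cluster members bears on how reads can be assigned. In the PCDHA and PCDHG clusters, a stretch of exon 2, the first constant exon, is carried by a transcript of every gene, so a read from it cannot be given to any 1 of them. The stretches below come from GENCODE 29 transcripts on GRCh38, plus strand.
PCDHA, 15 of 15 genes, chr5:140978949-140979006: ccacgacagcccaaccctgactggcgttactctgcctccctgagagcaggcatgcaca
PCDHG, 22 of 22 genes, chr5:141494807-141494864: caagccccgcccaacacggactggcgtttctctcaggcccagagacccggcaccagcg
In windows of 50 bases along the longest transcript, the median PCDHA gene shared 58% of its windows with another protocadherin and the median PCDHG gene 47.4%. The median was 13.6% over the 16 PCDHB genes, with a range from 0 to 45.7%. Among the 13 non-clustered genes, 11 shared no window, and the exceptions were PCDH11X and PCDH11Y, a pair of close copies on the sex chromosomes, at 57.3% and 58.5%.
Within the PCDHB cluster the closest neighbours by sequence were PCDHB8 and PCDHB13, whose first 453 coding bases were identical. A window of 100 coding bases that begins at coding base 414, near the end of that identical run, is printed for both, with the 3 differing bases in capitals.
PCDHB8, chr5:141178448-141178547: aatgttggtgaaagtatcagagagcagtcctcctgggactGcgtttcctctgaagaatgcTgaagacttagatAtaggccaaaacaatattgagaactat
PCDHB13, chr5:141214537-141214636: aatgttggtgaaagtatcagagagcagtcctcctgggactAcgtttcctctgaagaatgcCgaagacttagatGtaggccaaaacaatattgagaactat

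The libraries held 60288244 to 63003121 counted reads. The induced genes were highest in their own libraries, at 62.43 cRPKM for MSI1, 38.53 for SRRM3 and 63.78 for SRRM4, where cRPKM is the deposited read density, corrected for the length of a gene and scaled by the reads of the library. The 6 HEK293 markers fixed for the check (KRT8, KRT18, VIM, PAX2, LHX1 and NEFM) were detected above 3 reads in every library, from 0.73 to 1211.14 cRPKM. Of 9 markers of blood, fibroblasts, endothelium and liver, only COL1A1 exceeded 1 cRPKM (3.23 to 4.29). The 4 neuron markers summed to 0.4 cRPKM in the empty-vector library, 0.25 in MSI1, 1.1 in SRRM3 and 1.6 in SRRM4. SNAP25 made up most of the last 2 sums, with 0.96 and 1.35 cRPKM, and DCX had no read. SYT1 was highest in the empty-vector library, with 0.24 cRPKM against 0.08 in MSI1, 0.08 in SRRM3 and 0.17 in SRRM4, and RBFOX3 lay between 0.06 and 0.13. The part of these markers in the protocadherin results was not tested.

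Among the 29 genes analysed, the non-clustered genes supplied nearly all reads, and the share of PCDHA and PCDHG is not known here. Their summed CPM, reads scaled by the library total, were 177.1 in the empty-vector library, 124.6 in MSI1, 162.7 in SRRM3 and 163.4 in SRRM4. The 16 PCDHB genes together reached 3.173, 3.349, 2.814 and 3.118 CPM in the same order, which is 197, 211, 177 and 188 reads. Of the 29 members, 7 had a mean of at least 1 cRPKM over the 4 libraries and entered the comparisons by fold, all of them non-clustered: PCDH7, PCDH9, PCDH1, PCDH17, PCDH19, PCDH20 and PCDH18. The other 22 did not, and 10 members, 6 of them PCDHB genes, had at most 3 reads in every library. Just inside the limit were PCDH18 with a mean of 1.02 cRPKM and PCDH20 with 1.21, and just outside were PCDHB2 with 0.638 and PCDH10 with 0.46.

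**Figure D1:**
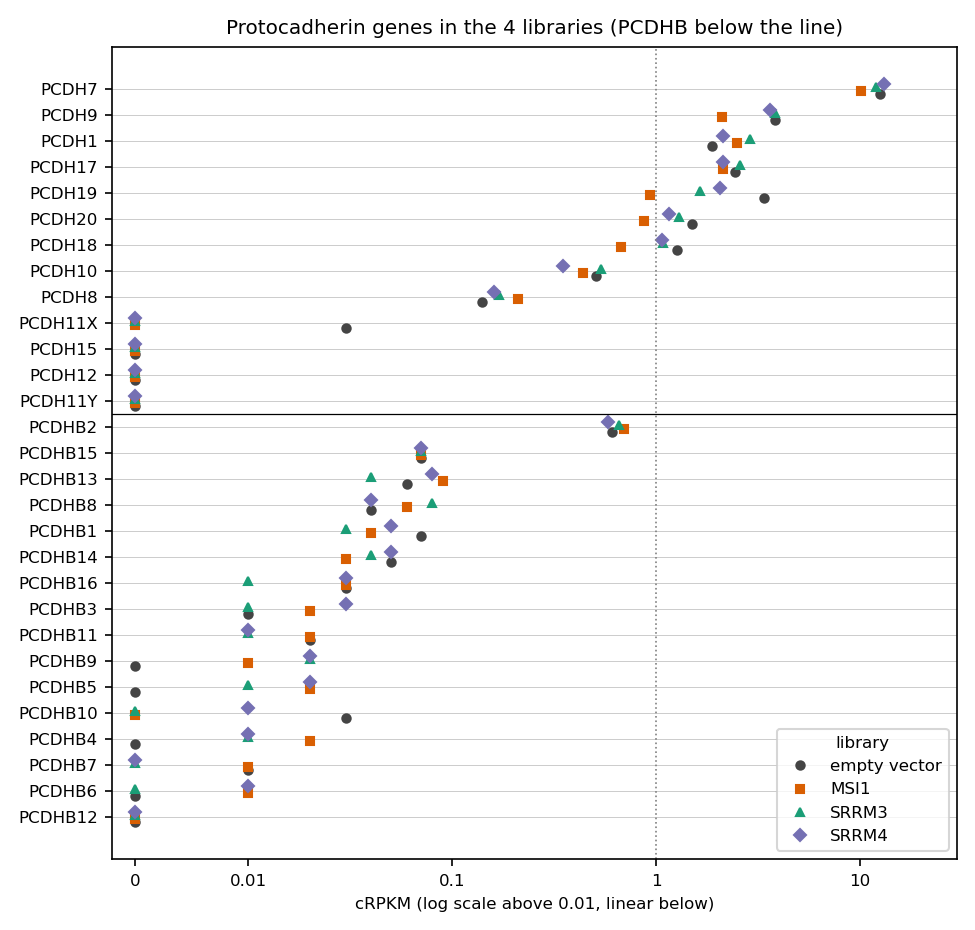
Level of each of the 29 protocadherin genes (rows) in cRPKM on a logarithmic axis that is linear below 0.01, with 1 point per library and group; the dotted line marks 1 cRPKM. PCDH7 stands highest at 10.13 to 13.14 cRPKM, and all PCDHB genes lie below 1 cRPKM in all 4 libraries.

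The member with the widest spread among the 7 was PCDH19, a delta2 protocadherin that binds N-cadherin and is mutated in an X-linked epilepsy. The gene lies on the minus strand at chrX:100291644-100410273. The 250 bases before its start are shown as the place from which this transcript is made, with each CG dinucleotide in capitals (RefSeq, GRCh38.p14, minus strand, chrX:100410274-100410523).
PCDH19 promoter: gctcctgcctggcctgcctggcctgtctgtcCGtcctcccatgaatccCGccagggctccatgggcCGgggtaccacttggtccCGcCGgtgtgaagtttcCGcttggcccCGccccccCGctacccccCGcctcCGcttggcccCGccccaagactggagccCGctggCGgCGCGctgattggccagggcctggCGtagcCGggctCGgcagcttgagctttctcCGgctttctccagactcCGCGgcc
It held 21 CG dinucleotides against a median of 11 over all promoters of that length, and 69.8% of them had fewer. PCDH19 had 3.40 cRPKM in the empty-vector library, 0.93 in MSI1, 1.65 in SRRM3 and 2.06 in SRRM4, from 1667, 461, 818 and 982 reads. The empty-vector library was thus the highest, followed by SRRM4, SRRM3 and MSI1. Scaled by library totals, PCDH19 reads in the MSI1 library were 0.273 of those in the empty-vector library (95% interval 0.245 to 0.302). This and all further intervals are exact conditional (Clopper-Pearson) ones that cover counting error only, and they compare libraries, not conditions. Intervals that exclude 1 were common. Against the empty vector they lay above 1 for 32.3% of all compared genes and below 1 for 27.6% in MSI1. In SRRM3 the shares were 29.6% and 28.1%, and in SRRM4 23.2% and 25.1%. They were 27.1% and 30.5% for SRRM4 over SRRM3, and 28.8% and 34.6% for SRRM3 over MSI1. Such an interval therefore does not by itself set a member apart. The PCDH19 ratio to the empty vector was 0.484 (0.445 to 0.527) in SRRM3 and 0.607 (0.56 to 0.657) in SRRM4. Neighbours in the order also differed beyond counting error, with SRRM4 over SRRM3 at 1.25 (1.14 to 1.38) and SRRM3 over MSI1 at 1.778 (1.584 to 1.997). In RNA from a whole culture, fewer cells with the transcript and less of it per cell cannot be told apart.

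The other delta2 members differed less. PCDH18, which binds the adaptor DAB1, had 1.27 cRPKM in the empty-vector library, 0.67 in MSI1, 1.08 in SRRM3 and 1.07 in SRRM4. The MSI1 library was the low one, with a read ratio to the empty vector of 0.533 (0.455 to 0.624). PCDH18 in the SRRM3 and SRRM4 libraries stood at ratios of 0.852 (0.743 to 0.977) and 0.849 (0.739 to 0.974), and SRRM4 over SRRM3 at 0.996 (0.863 to 1.15).
PCDH17, known for its part in assembling presynapses in the basal ganglia, had 2.43, 2.14, 2.58 and 2.13 cRPKM, listed from the empty-vector library through MSI1 and SRRM3 to SRRM4. Its ratio to the empty vector was 0.881 (0.811 to 0.956) in MSI1, 1.06 (0.982 to 1.15) in SRRM3 and 0.879 (0.809 to 0.955) in SRRM4. The 4 libraries thus fell into a higher pair, empty vector and SRRM3, and a lower pair, MSI1 and SRRM4. PCDH17 did not differ beyond counting error within the lower pair, at 0.998 (0.916 to 1.09).
PCDH10, which links to the WAVE complex that drives actin assembly, stayed under the limit of 1 cRPKM, with 0.51, 0.44, 0.54 and 0.35 in the same order. The SRRM4 library was the lowest, at 0.68 (0.559 to 0.825) of the empty vector from 177 against 268 reads. PCDH8, an adhesion protein induced by activity in neurons, had 43, 67, 55 and 50 reads, or 0.14 to 0.21 cRPKM. The PCDH8 ratio of MSI1 to the empty vector was 1.53 (1.03 to 2.31), the reverse of the delta2 genes above. Summed over delta2, reads were 0.567 (0.537 to 0.599) of the empty vector in MSI1, 0.775 (0.738 to 0.814) in SRRM3 and 0.741 (0.704 to 0.779) in SRRM4. Without PCDH19, a step added after its values were seen, the same ratios were 0.812 (0.761 to 0.867), 1.02 (0.955 to 1.08) and 0.852 (0.798 to 0.91).

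Among the delta1 members, PCDH7 was the most abundant per length of all the protocadherins analysed here. Its cytoplasmic tail binds a catalytic subunit of protein phosphatase 1. It had 12.59 cRPKM in the empty-vector library, 10.13 in MSI1, 11.96 in SRRM3 and 13.14 in SRRM4, from 4054 to 5034 reads. The MSI1 library was lowest, at 0.804 (0.771 to 0.838) of the empty vector. PCDH7 was at 0.95 (0.913 to 0.989) in SRRM3 and at 1.04 (1.003 to 1.085) in SRRM4, so the libraries lay on both sides of the control.
PCDH9, a neural adhesion gene with a span of nearly a megabase on chromosome 13, had 3.84 cRPKM in the empty-vector library, 2.12 in MSI1, 3.85 in SRRM3 and 3.63 in SRRM4. Only MSI1 stood apart for PCDH9, at 0.551 (0.506 to 0.601) of the empty vector. The SRRM3 ratio was 1.00 (0.932 to 1.08) and the SRRM4 ratio 0.946 (0.878 to 1.02).
PCDH1, an adhesion protein of airway epithelium, was the only 1 of the 7 whose ratio to the empty vector was above 1 in all 3 comparisons. It had 1.89 cRPKM in the empty-vector library, 2.5 in MSI1, 2.90 in SRRM3 and 2.14 in SRRM4. The PCDH1 ratio was 1.32 (1.17 to 1.5) in MSI1, 1.53 (1.36 to 1.73) in SRRM3 and 1.13 (0.993 to 1.29) in SRRM4. The last interval includes 1, and SRRM4 over SRRM3 was 0.738 (0.656 to 0.83). PCDH11X had 1 read in all 4 libraries together and PCDH11Y none. Of the reads summed over delta1, PCDH7 gave 68.6% to 74%. The delta1 sum was at 0.783 (0.756 to 0.812) of the empty vector in MSI1. It was at 0.999 (0.966 to 1.03) in SRRM3 and 1.03 (0.994 to 1.06) in SRRM4.

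PCDH20, outside both delta groups, had 1.5 cRPKM in the empty-vector library, 0.87 in MSI1, 1.30 in SRRM3 and 1.16 in SRRM4. Its lowest level was in MSI1, at 0.584 (0.499 to 0.682) of the empty vector, followed by SRRM4 at 0.779 (0.673 to 0.9). The SRRM3 ratio of PCDH20 was 0.872 (0.759 to 1.002). In GENCODE 29, PCDH20 is overlapped on the same strand by AL592490.1, a protein-coding gene for which no value was analysed here, and 4.23% of the windows of PCDH20 are found in no other gene. PCDH12, a protocadherin of endothelium, had 0 to 2 reads per library. PCDH15, a component of the tip link of hair cells, had none.

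**Figure D2:**
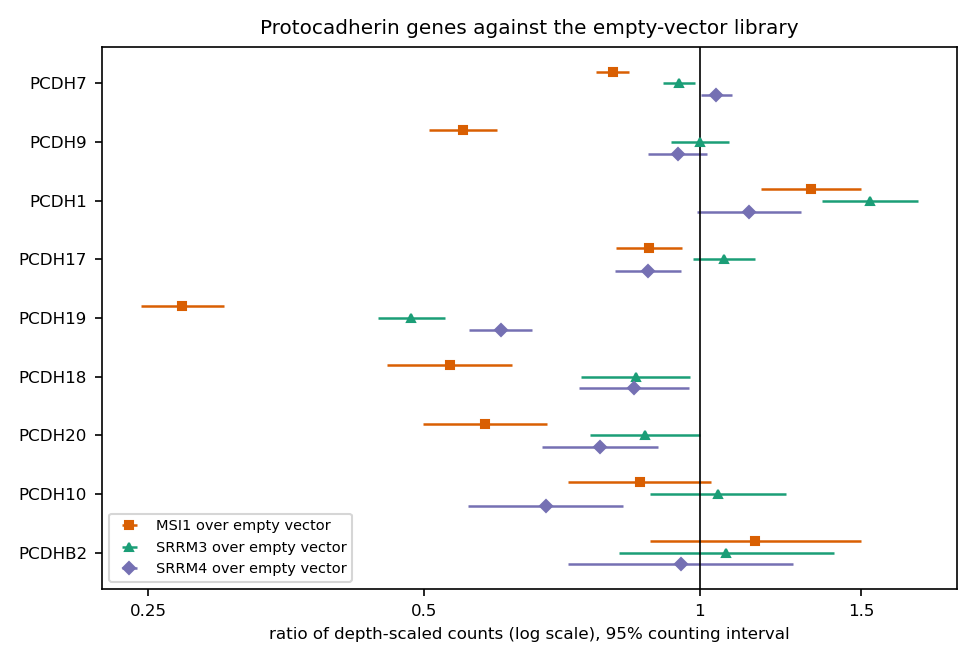
Ratio of reads, scaled by library totals, in each induced library to the empty-vector library, on a log axis, for the 7 compared genes, PCDH10 and PCDHB2; bars are 95% intervals for counting error in 1 library per group. PCDH19 lies left of 1 in all 3 comparisons and farthest left in MSI1 at 0.273, while PCDH1 lies right of 1.

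Reads from the PCDHB cluster came mainly from PCDHB2. This gene, at chr5:141094578-141098703, had 0.61 cRPKM in the empty-vector library, 0.70 in MSI1, 0.66 in SRRM3 and 0.58 in SRRM4, from 108, 126, 117 and 100 reads. It gave 53.2% to 66.1% of the PCDHB reads in a library. The PCDHB2 ratios to the empty vector were 1.15 (0.882 to 1.5), 1.07 (0.816 to 1.4) and 0.954 (0.719 to 1.26) in MSI1, SRRM3 and SRRM4, so no difference was detectable at this depth.
The other 15 PCDHB genes had at most 0.09 cRPKM in any library. PCDHB15 had 13, 13, 13 and 14 reads, and PCDHB13 had 12, 18, 7 and 14, in the order empty vector, MSI1, SRRM3, SRRM4. PCDHB1, the first gene of the cluster, had 32, 20, 14 and 23 reads. Its SRRM3 ratio to the empty vector was 0.432 (0.213 to 0.833). Among the PCDHB genes it was the only ratio to the empty vector past 2-fold with an interval that excluded 1. It was picked from many intervals, some of which can exclude 1 by counting error alone, and PCDHB1 had 0.07 and 0.03 cRPKM there. The share of all genes at such low levels was not computed, and nothing is read from this ratio. PCDHB12 had no read in any library, which does not exclude a low level in each.
For the whole cluster, the ratio to the empty vector was 1.05 (0.865 to 1.29) in MSI1, 0.887 (0.72 to 1.09) in SRRM3 and 0.983 (0.8 to 1.21) in SRRM4. All 3 intervals include 1. The PCDHB sum without PCDHB2 rests on 60 to 89 reads, and its ratio was 0.941 (0.691 to 1.28) in MSI1, 0.666 (0.472 to 0.934) in SRRM3 and 1.02 (0.75 to 1.38) in SRRM4. In the library with the low sum, SRRM3, PCDHB1 had 14 of the 60 reads, against 32 of 89 in the empty vector.

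The MSI1 library had the lowest non-clustered sum of the 4, scaled by library totals. Its PCDHB sum, given above, did not differ from the empty vector beyond counting error. Summed over the 13 non-clustered genes, reads were 0.703 (0.683 to 0.724) of the empty vector, and 0.78 (0.757 to 0.805) without PCDH19. Of the 7 genes compared, 6 had a ratio below 1 and PCDH1 was above it, where 46.3% of all genes compared had a ratio below 1. PCDH19 was past 2-fold, at a log2 ratio of -1.45 computed from cRPKM with 0.5 added to each value. That rule of size, with no test behind it, was met by 0.669% of the 12705 genes compared, in either direction. A lower bar, a read ratio of at least 1.5-fold with an interval that excluded 1, was met on the low side by PCDH19, PCDH9, PCDH18 and PCDH20, and by 1.24% of all genes. On the high side it was met by 0 of the 7 and by 2.23% of all genes. The median log2 ratio was -0.55 over the 7 and 0.02 over all genes. PCDH19, PCDH18 and PCDH20 lay under 1 cRPKM in the MSI1 library and passed the filter through the other libraries, so these counts describe the 7 genes and not the whole family.

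In the SRRM3 library, PCDH19 was lower and PCDH1 higher than in the empty vector, and the other 5 stayed within 1.5-fold. The non-clustered sum was at 0.919 (0.894 to 0.944) and, without PCDH19, at 0.996 (0.968 to 1.02). None of the 7 met the 2-fold rule, which 0.882% of all genes met. PCDH19 had a log2 ratio of -0.86 on the scale with 0.5 added, although its read ratio of 0.484 lies past 2-fold. The 1.5-fold rule was met by PCDH19 on the low side, with 0.669% of all genes, and by PCDH1 on the high side, with 2.16%. The median log2 ratio was -0.07 over the 7 and 0.00 over all genes.

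In the SRRM4 library, PCDH19 was again the lowest of the 7 relative to the empty vector, and the other 6 stayed within 1.5-fold. The non-clustered sum was at 0.922 (0.897 to 0.948), and at 0.979 (0.95 to 1.01) without PCDH19. None of the 7 met the 2-fold rule, against 0.771% of all genes. PCDH19 met the 1.5-fold rule on the low side, with 0.464% of all genes, and none met it on the high side, with 1.07%. The median log2 ratio was -0.16 over the 7 and -0.00 over all genes. The 3 comparisons share the empty-vector library, so their values are not independent of each other.

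**Figure D3:**
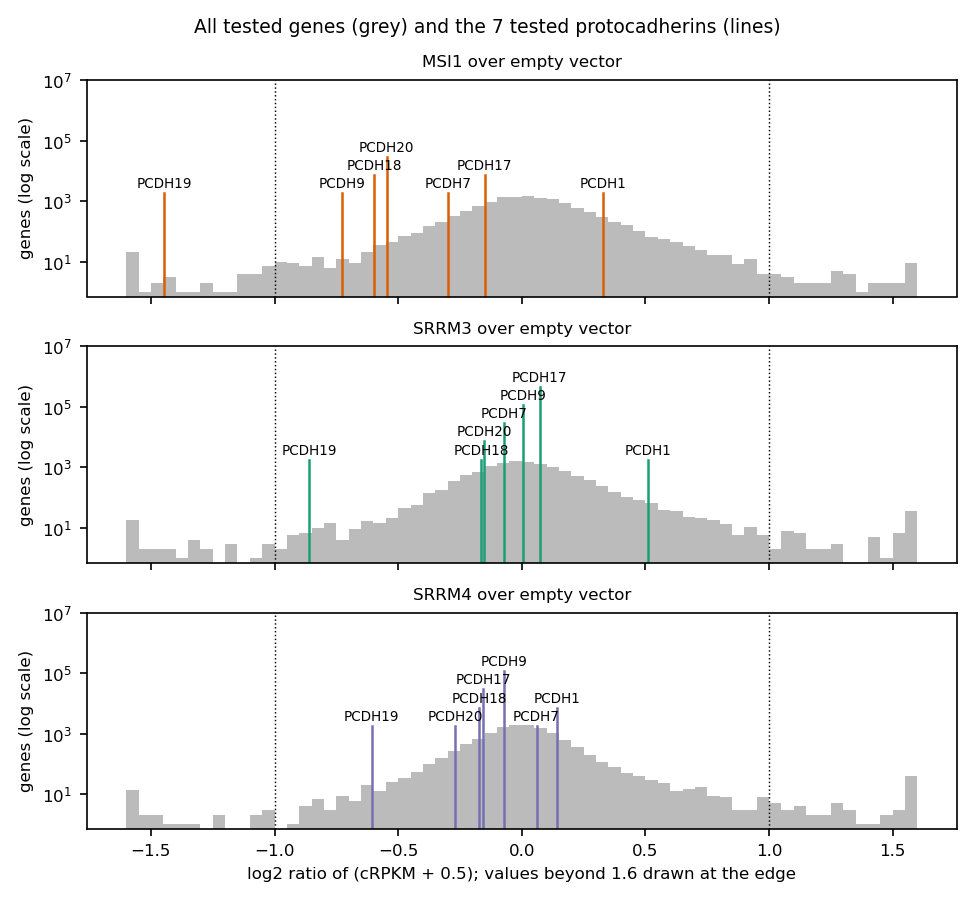
Histograms of the log2 ratio of cRPKM + 0.5 to the empty vector over all compared genes (grey, number of genes on a log axis), 1 panel per induced library, with coloured lines at the 7 compared protocadherins; line heights are staggered for the labels only, and dotted lines mark 2-fold. PCDH19 is the leftmost of the 7 in each panel, at -1.45, -0.86 and -0.61.

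Set against each other without the empty vector, the SRRM4 and SRRM3 libraries had the same non-clustered sum within counting error, at 1.00 (0.976 to 1.03). None of the 7 met the 2-fold rule, met by 0.512% of all genes, or the 1.5-fold rule, met by 2.73%. PCDH19 and PCDH7 were higher in SRRM4, PCDH7 at 1.1 (1.06 to 1.14), and PCDH1 and PCDH17 were lower, PCDH17 at 0.827 (0.762 to 0.897). Outside the 7, PCDH10 stood at 0.65 (0.536 to 0.787).
With the MSI1 library in place of the empty vector as the control, PCDH19, PCDH9 and PCDH18 met the 1.5-fold rule on the high side in both SRRM libraries. The rule was met by 2.85% of all genes in SRRM3 and by 1.69% in SRRM4. Both comparisons share the MSI1 library and are not independent, and PCDH19 and PCDH18 passed the filter through the libraries other than MSI1, so nothing is read from the number of members. PCDH9 had ratios of 1.82 (1.67 to 1.98) and 1.71 (1.57 to 1.87) to MSI1, and PCDH19 of 1.778 (1.584 to 1.997) and 2.23 (1.99 to 2.49).

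Genes near PCDH19 on the X chromosome did not share its ratios in the MSI1 and SRRM3 libraries. The 9 compared genes within 1 Mb had ratios to the empty vector of 0.796 to 1.16 in MSI1, 0.734 to 1.19 in SRRM3 and 0.597 to 1.03 in SRRM4. None was below PCDH19 in MSI1 or SRRM3, and 1 was in SRRM4. The medians over all compared genes of chromosomes 4, 5, 13 and X, which hold the 7 members, lay between -0.06 and 0.01 on the log2 scale in the 3 comparisons with the empty vector.
PCDH1 lies beyond the clusters on chromosome 5, and 12 compared genes lie within 1 Mb of it. In SRRM3 their ratios ran from 0.583 to 1.75, and 11 of the 12 were below PCDH1. The exception was ARAP3, a regulator of small GTPases, at 1.75 (1.59 to 1.92), which also stood at 1.65 (1.49 to 1.81) in MSI1.
Of the 15 genes listed as neighbours of the clusters on chromosome 5, 14 were compared and none met the 2-fold rule in any comparison with the empty vector. The 2-fold rule was met by 0.669% of all genes in MSI1, 0.882% in SRRM3 and 0.771% in SRRM4, so nothing is read from that. The 1.5-fold rule was met on the high side by ARAP3 and RELL2 in MSI1, as by 2.23% of all genes. RELL2, at 1.501 (1.28 to 1.76), lay at the edge of the rule. In SRRM3 it was met on the high side by ARAP3, as by 2.16% of all genes. Their medians were -0.02, -0.02 and 0.07 in MSI1, SRRM3 and SRRM4.

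The lists of genes known to act on the clusters and on their proteins were set against the empty vector in the same way. All 17 chromatin regulators on the list, which include CTCF, the cohesin subunits, SMCHD1 and the DNA methyltransferases, were compared, and 0 of 17 met the 2-fold or the 1.5-fold rule against the empty vector. The 2-fold rule was met by 0.669% of all genes in MSI1, 0.882% in SRRM3 and 0.771% in SRRM4. The 1.5-fold rule was met on the low and high sides by 1.24% and 2.23% in MSI1. The same shares were 0.669% and 2.16% in SRRM3, and 0.464% and 1.07% in SRRM4. These shares are so low that this list and each of those below could hold none. Nothing is therefore read from the 0 here or from the lists below without a call. Their median log2 ratios were 0.00 in MSI1, -0.01 in SRRM3 and 0.03 in SRRM4. SMCHD1, a silencer of the clusters, had 35.79 cRPKM in the empty-vector library, 34.27 in MSI1, 31.58 in SRRM3 and 26.80 in SRRM4, and was lowest in SRRM4 at a ratio of 0.749.
The 22 intracellular partners and proteases, which include the WAVE complex, the kinases PTK2 and PTK2B and the gamma-secretase subunits, likewise had 0 members past either rule against the empty vector. For SRRM4 over SRRM3, only the gamma-secretase subunit APH1B of the 22 was past the 1.5-fold rule, at 0.652 (0.607 to 0.701). On the low side 1.9% of all genes met it, so this call does not set the list apart. Their median log2 ratios were 0.06, 0.05 and 0.00 in MSI1, SRRM3 and SRRM4, each over the empty vector.
Of the 23 classical and related cadherins, 6 were compared and none met either rule against the empty vector, from which nothing is read. In SRRM4 against MSI1, 2 of them (CDH1 and CDH3) met the 1.5-fold rule on the low side, as did 2.35% of all genes. CDH2, the N-cadherin that PCDH19 binds, was the most abundant, at 57.15 cRPKM in the empty-vector library, 48.92 in MSI1, 53.99 in SRRM3 and 54.55 in SRRM4. All 4 CDH2 values were above the highest value of any protocadherin analysed here, on this per-length scale.
Among 18 large and atypical cadherins, 11 were compared, and CELSR3, a planar-polarity cadherin of neurons, met the 2-fold rule. It had 0.46 cRPKM in the empty-vector library, 0.64 in MSI1, 2.94 in SRRM3 and 3.21 in SRRM4, and passed the filter only through the SRRM libraries. The CELSR3 ratios to the empty vector were 6.37 (5.68 to 7.16) in SRRM3 and 6.95 (6.2 to 7.81) in SRRM4. In MSI1, FAT3 at 0.646 (0.603 to 0.691) and CLSTN2 at 0.651 (0.6 to 0.707) met the 1.5-fold rule on the low side, as did 1.24% of all genes. DCHS1 met it on the high side at 1.61 (1.46 to 1.77), as did 2.23% of all genes. DCHS1 had 1.01 cRPKM in the empty-vector library, 1.63 in MSI1, 1.06 in SRRM3 and 0.86 in SRRM4. It passed the filter only through its MSI1 value, so nothing is read from its call there. The 3 catenins compared met neither rule against the empty vector, from which nothing is read.

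The deposited values also give the length behind each level. Dividing a count by its cRPKM and the library total gives the length that was used for the gene. For PCDH18 this length was 5855 to 5857, where its longest transcript has 5857 windows of 50 bases, and for PCDH20 it was 4727 to 4730 against 4729. For PCDH17 it was 8173 to 8190 against 8183. Several PCDHB genes had lengths below their number of windows. PCDHB2 had 2837 to 2840 against 4077 windows, of which 3251 are shared with no other protocadherin and 2718 with no other gene. PCDHB13 had 3007 to 3096 against 5012, and PCDHB8 had 748 to 848 against 2691, of which 887 are shared with PCDHB13. The length used for these PCDHB genes was thus shorter than the transcript, and how reads from shared stretches such as that of PCDHB8 and PCDHB13 were counted was not tested. A shorter length was not limited to genes with shared windows: PCDH9 had 6178 to 6186 against 28178, and PCDH19 had 7888 to 7907 against 9707, although neither shares a window with another protocadherin. The window size was chosen for the comparison, and for the read length the sources used here give no value.

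**Figure D4:**
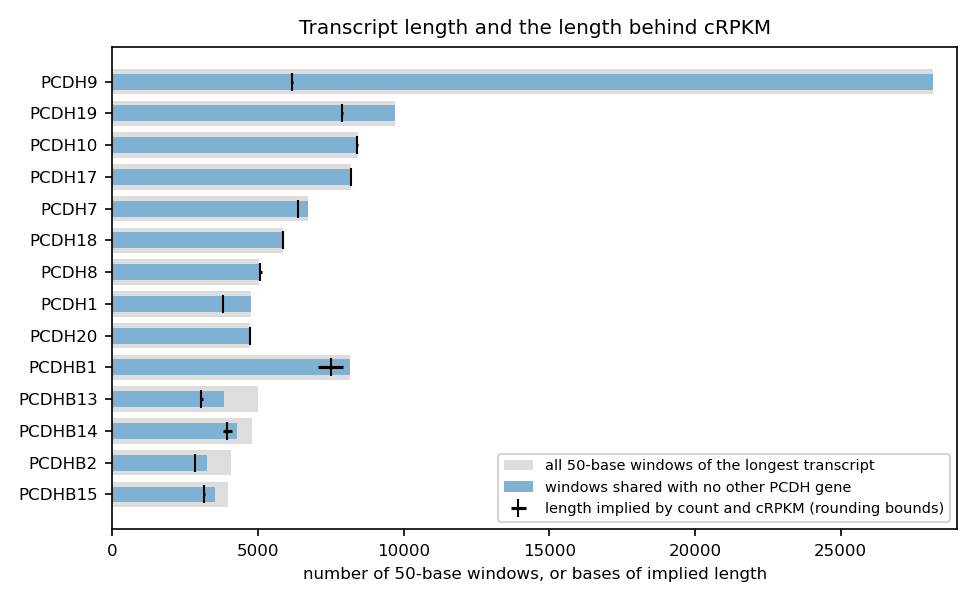
Number of 50-base windows of the longest GENCODE 29 transcript (grey bars) and of those shared with no other protocadherin (blue bars), with the length in bases implied by count and cRPKM (black ticks, horizontal bars for rounding bounds). For PCDH18, PCDH20 and PCDH17 the tick meets the end of the bar, and for PCDHB2 and PCDHB13 it lies short of it.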

How the data were processed

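PolyA RNA of 4 doxycycline-induced HEK293 lines was sequenced in 1 library each, and groups follow the labels. Each deposited file gives a gene ID, an RPKM value that the authors call cRPKM (corrected RPKM) and a whole-number read count. Counts were used as the authors deposited them. Per the submitters' processing notes, the genome build was hg38 (GRCh38), and the libraries are stranded per the labels. Not given in the sources used here: aligner, counter, annotation, read length and use of strand in counting. Each file lists 41614 genes, and 1426 without a value were left out.

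Genes with a mean of at least 1 cRPKM over the 4 libraries were compared, leaving out the induced genes, by log2 of cRPKM with a pseudocount of 0.5, which understates differences of low genes. A gene was called at an absolute log2 ratio of at least 1, or, as a second rule, at a 1.5-fold ratio of counts scaled by library totals with an exact 95% interval excluding 1. Intervals cover counting error only. The floor was 3 reads. Named were all members passing the filter, the highest of each cluster below it, others with a ratio past 2-fold and an interval excluding 1, and up to 4 genes per further list. PCDH8, SMCHD1 and members named for few or no reads were added with their values seen. Members and lists were chosen with earlier results of these data known. Symbols, coordinates and transcripts come from GENCODE 29, and promoters from RefSeq. Alternatives were other pseudocounts, filters, rules and controls and TMM factors (edgeR 4.0.16, R 4.3.3). Python 3.11.15, pandas 2.3.3 and scipy 1.17.1 were used. The comparison was also run on simulated counts with planted changes and counting error only. That run cannot show how lines or libraries vary.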

Additional observations from a re-analysis of the deposited data

Results flagged for a closer look

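PCDH7 lay on different sides of the empty vector in different libraries: its read ratio was 1.04 in SRRM4, 0.804 in MSI1 and 0.95 in SRRM3. With 1 library per group, the difference between these effects was not tested. The direct ratios of the libraries, which do not use the empty vector, were 1.3 (95% counting interval 1.25 to 1.35) for SRRM4 over MSI1 and 1.1 (1.06 to 1.14) for SRRM4 over SRRM3.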

How the results depend on the processing

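Each gene was measured in 1 library per group, so no value has a replicate check and no library could be left out within a group. No paired analysis was possible because the groups share no replicate numbers beyond a single library each. The number of the 7 members called past 2-fold in MSI1 was 1, and became 0 with a pseudocount of 2, 0 with a mean of at least 5 cRPKM (1 member compared) and 4 with the 1.5-fold rule and interval. In SRRM3 it was 0, and became 1 with a pseudocount of 0.1, 1 with CPM and TMM factors and 2 with the 1.5-fold rule. In SRRM4 it was 0, and became 1 with the 1.5-fold rule. The non-clustered sum in MSI1, 0.703 of the empty vector, was 0.725 as a sum of cRPKM, 0.62 without PCDH7 and 0.78 without PCDH19. In SRRM3, 0.919 became 0.893 without PCDH7 and 0.996 without PCDH19, and in SRRM4, 0.922 became 0.822 and 0.979. Against MSI1 as the control the same sums were reversed, at 1.31 in SRRM3 and 1.31 in SRRM4. SRRM4 over SRRM3 became 0.921 without PCDH7. Without PCDHB2, the PCDHB sum was 0.666 in SRRM3 and 1.53 (1.09 to 2.16) for SRRM4 over SRRM3. The alternative without PCDH19 was chosen after seeing the data. Of 120 values for the 10 named members, 106 moved by less than their counting error, 14 moved by more and 0 reversed. A reversal was counted only where the counting interval of the ratio excluded 1. Signs did change with TMM factors where the interval included 1. The log2 ratio of PCDH9 in SRRM3 over the empty vector went from 0.003 to -0.008. That of PCDH18 in SRRM4 over SRRM3 went from -0.009 to 0.009. A change of pseudocount cannot alter the sign of a log2 ratio. The TMM factors, 0.99 to 1.015, could do so only where a gene was nearly equal between libraries. Nothing is therefore read from the 0. The PCDHB genes other than PCDHB2 had at most 32 reads in a library, so their ratios have wide counting intervals.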

Other observations

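Some other adhesion genes below the filter, chosen after their values were seen, also had read ratios away from 1. They were picked from longer lists, and the share of all genes at such low levels with such ratios was not computed. The values are therefore a description, and nothing is read from the ratios. CDH4, the retinal R-cadherin, had 0.70 cRPKM in the empty-vector library, 0.33 in MSI1, 0.37 in SRRM3 and 0.54 in SRRM4, from 282, 136, 150 and 210 reads. CDH4 was thus highest in the empty-vector library and lowest in MSI1, at a read ratio of 0.475 (95% counting interval 0.384 to 0.585). CTNND2, the neural delta-catenin, had 105, 72, 30 and 72 reads in the same order, and its SRRM3 ratio was 0.282 (0.181 to 0.427). CDHR3, a cadherin of airway epithelium, went the other way, with 29, 55, 62 and 58 reads, at ratios of 1.87 (1.17 to 3.04) in MSI1, 2.11 (1.34 to 3.4) in SRRM3 and 2.06 (1.3 to 3.34) in SRRM4.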
